A study of Homo sapiens with 24 samples.

Results

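The 7 human genes described here carry microRNAs of the miR-15/16 family, to which miR-497 belongs, lie beside one or carry another well known microRNA. They were followed through the series by their gene identifiers: MIR497HG, DLEU2, SMC4, MIR503HG, DLEU1, MIR17HG and MIR22HG, 7 of the 57500 genes counted. The cells were H2052, an established human line of pleural mesothelioma, which grows from the membrane around the lungs. They received 20 nM of a synthetic microRNA with biotin at its 3′ end, delivered with Lipofectamine RNAiMAX. It was either miR-497-5p (miR-497-5p-RE in the labels, a suffix not explained there) or a scrambled control. All 8 groups come from this 1 line and differ only in mimic (control or miR-497-5p), time (12 or 72 h) and assay, with 3 libraries each. The assays were RNA-seq of the input RNA and RNA-seq of a pull-down, the RNA that streptavidin beads took from a cytoplasmic extract. Libraries were made from poly(A) RNA, so they measure the host transcripts and not the mature microRNAs or the mimic.

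A microRNA is cut from a hairpin in a longer primary transcript by the DROSHA and DGCR8 complex in the nucleus, and then by DICER1 in the cytoplasm. The mature strand guides Argonaute proteins to mRNAs that pair with its seed, bases 2 to 8, which lowers their translation and stability. The hairpins sit in introns or exons of host genes, some of which encode proteins and some of which have no other known product. Members of the miR-15/16 family share a seed and act on cell cycle and survival genes; their loss at the DLEU2 locus is a frequent lesion of chronic lymphocytic leukaemia, and low levels of the family have been described in pleural mesothelioma.

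The mature strands are shown because they say which hosts make a microRNA with the seed of the mimic. They are given 5′ to 3′ from RefSeq, with the seed in capitals. In the first 6 the seed is the same.

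hsa-miR-497-5p: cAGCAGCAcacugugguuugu
hsa-miR-195-5p: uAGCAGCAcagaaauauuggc
hsa-miR-15a-5p: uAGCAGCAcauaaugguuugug
hsa-miR-16-5p: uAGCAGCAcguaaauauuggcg
hsa-miR-15b-5p: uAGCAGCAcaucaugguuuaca
hsa-miR-424-5p: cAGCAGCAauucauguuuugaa
hsa-miR-503-5p: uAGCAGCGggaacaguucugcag
hsa-miR-17-5p: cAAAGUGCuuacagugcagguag
hsa-miR-20a-5p: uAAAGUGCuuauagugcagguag
hsa-miR-22-3p: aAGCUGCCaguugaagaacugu

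MIR497HG (ENSG00000267532, GRCh38 chromosome 17, 7015818 to 7019659, minus strand) carries miR-497 and miR-195, both inside its counted exon. DLEU2 (ENSG00000231607, chromosome 13, 49982552 to 50125720, minus strand), a long noncoding RNA, carries miR-15a in a counted exon and miR-16-1 in an intron. SMC4 (ENSG00000113810, chromosome 3, 160399274 to 160434962, plus strand) encodes an ATPase of both condensin complexes, which compact chromosomes for mitosis, and carries miR-15b and miR-16-2 in an intron. MIR503HG (ENSG00000223749, chromosome X, 134543337 to 134546711, minus strand) carries miR-424 in a counted exon and miR-503, whose seed ends in another base, in an intron. Thus 4 of the 7 genes host a microRNA with the seed of the mimic.

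The other members do not. DLEU1 (ENSG00000176124, chromosome 13, 50082171 to 50723236, plus strand) is a long noncoding RNA that starts inside the DLEU2 locus on the opposite strand and hosts none of the hairpins listed here. MIR17HG (ENSG00000215417, chromosome 13, 91347820 to 91354579, plus strand) carries the 6 hairpins of the miR-17-92 cluster, known as an oncogenic cluster, all in counted exons. MIR22HG (ENSG00000186594, chromosome 17, 1711493 to 1717174, minus strand) carries miR-22 in a counted exon.

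A transcript pairs with the seed of miR-497-5p through TGCTGCT (a 7mer-m8 site), which followed by A makes an 8mer site. Only the plus sense of each transcript was searched. The counted exons of MIR497HG, DLEU1 and SMC4 hold 2 such sites each, those of DLEU2, MIR503HG and MIR22HG hold 1, and those of MIR17HG hold 0. The site of MIR22HG (chr17:1713087-1713094) is the only 8mer, and the share of genes with an 8mer was not computed. The counts leave out 7mer-A1 sites (GCTGCTA), of which DLEU1 and MIR503HG hold 1 each. The SMC4 sites (chr3:160399432-160399438 and chr3:160399435-160399441) overlap each other near the 5′ end of the gene as counted, outside the exons of GENCODE release 44. One of the MIR497HG sites (chr17:7017630-7017636) lies within miR-195-3p itself, the strand opposite miR-195-5p in its hairpin. The DLEU2 site is at chr13:50071598-50071604, the MIR503HG site at chr X, 134543391 to 134543397, and the DLEU1 sites are at chr13:50105232-50105238 and chr13:50338677-50338683. Such a site is common: among tested genes of similar exon length the share with at least 1 was 54.4% for MIR497HG, 83.9% for DLEU1, 63.4% for DLEU2, 74.5% for SMC4, 30.6% for MIR503HG, 50.4% for MIR17HG and 46.8% for MIR22HG. A match describes the letters and does not show that the site is used.

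**Figure D1:**
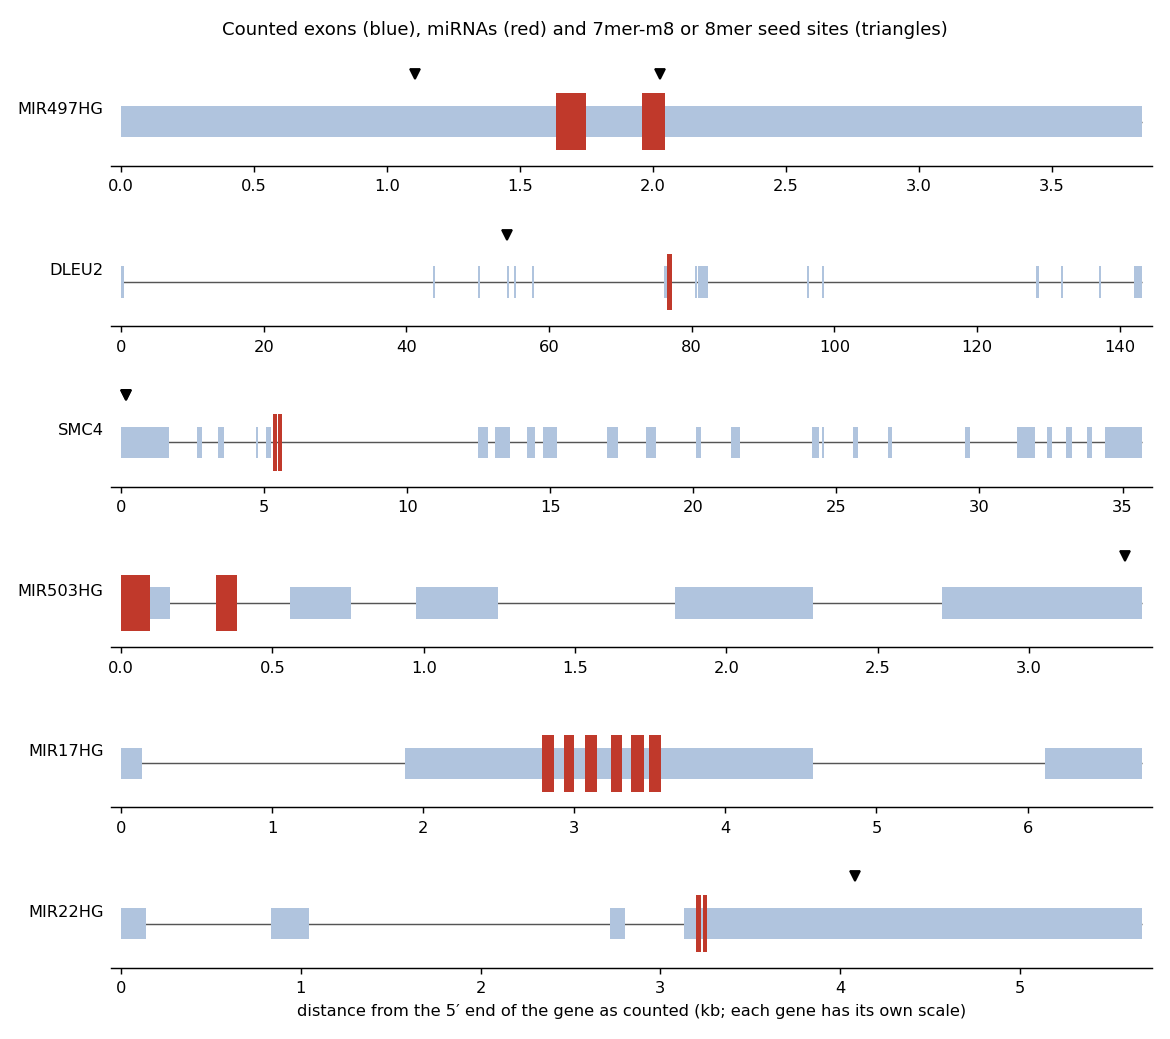
Map of the 6 host genes that carry a hairpin, with distance from the 5′ end of the gene as counted in kb on the horizontal axis, on a scale of its own for each gene. Blue boxes are counted exons, red boxes microRNAs (for MIR22HG the mature strands) and triangles 7mer-m8 or 8mer sites of the mimic's seed. The hairpins of SMC4 lie between exons, those of MIR17HG inside an exon, and MIR17HG has 0 triangles.

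Total counts were 21561816 to 30602007 per RNA-seq library and 8262425 to 30650982 per pull-down library, the lowest being replicate 2 of the miR-497-5p group at 72 h. The biological coefficient of variation was 0.06 in RNA-seq and 0.349 in the pull-down, so small differences are harder to see in the latter. The labels do not say whether replicates were separate cultures, and p-values therefore measure the spread between these libraries, which may be technical. Of 15 mesothelial markers the keratins KRT8, KRT18 and KRT19, vimentin, MSLN and WT1 were present, while CALB2 reached at most 1.94 CPM (the depth-scaled count, with TMM factors), UPK3B 0.688, HAS1 0.333 and ITLN1 0.0403 in any RNA-seq library. Of 12 tested in RNA-seq 5 were higher and 0 lower with miR-497-5p at 12 h, and 5 and 5 at 72 h, beside 12.5% and 57.5% of all tested genes called. Transcripts of squamous epithelium, another cell type, varied within groups at 12 h. The sum over 15 such markers was 188.1 to 591.8 CPM in control and 27.4 to 778.4 CPM in miR-497-5p RNA-seq libraries at 12 h. The pull-down libraries of that time had 44.6 to 557.4 and 70.3 to 792.1 CPM. At 72 h the marker sums were 9.87 to 28.6 CPM over all 12 libraries. These squamous sums use library totals without TMM factors. SBSN alone, scaled with TMM, had 8.47 to 23.3 CPM in the RNA-seq libraries of both times. With miR-497-5p 4 of the 15 squamous markers were lower in RNA-seq at 12 h and 0 were called at 72 h. The part of these transcripts in the 12 h results was not tested. In bulk RNA, fewer cells of a type and less RNA per cell cannot be told apart.

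Levels were compared between genes per kb of counted exon. In control RNA-seq at 12 h SMC4 stood first with 10.7 CPM per kb, then DLEU2 with 7.98, MIR22HG with 2.98 and DLEU1 with 1.5. MIR17HG followed with 0.362, MIR503HG with 0.167 and MIR497HG with 0.0689. The ranges of the first 4 did not overlap, while MIR17HG overlapped MIR503HG, and MIR503HG overlapped MIR497HG. The order was the same in control RNA-seq at 72 h, with 13.6 for SMC4, 7.24 for DLEU2, 5.21 for MIR22HG and 0.732 for DLEU1. With miR-497-5p at 72 h MIR22HG (8.72 CPM per kb) stood above DLEU2 (4.24), and their ranges did not overlap. MIR497HG, MIR503HG and MIR17HG had 0 to 74 counts in any library, so their values are imprecise. A count of 0 allows up to 3 counts in that library, for counting error only.

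**Figure D2:**
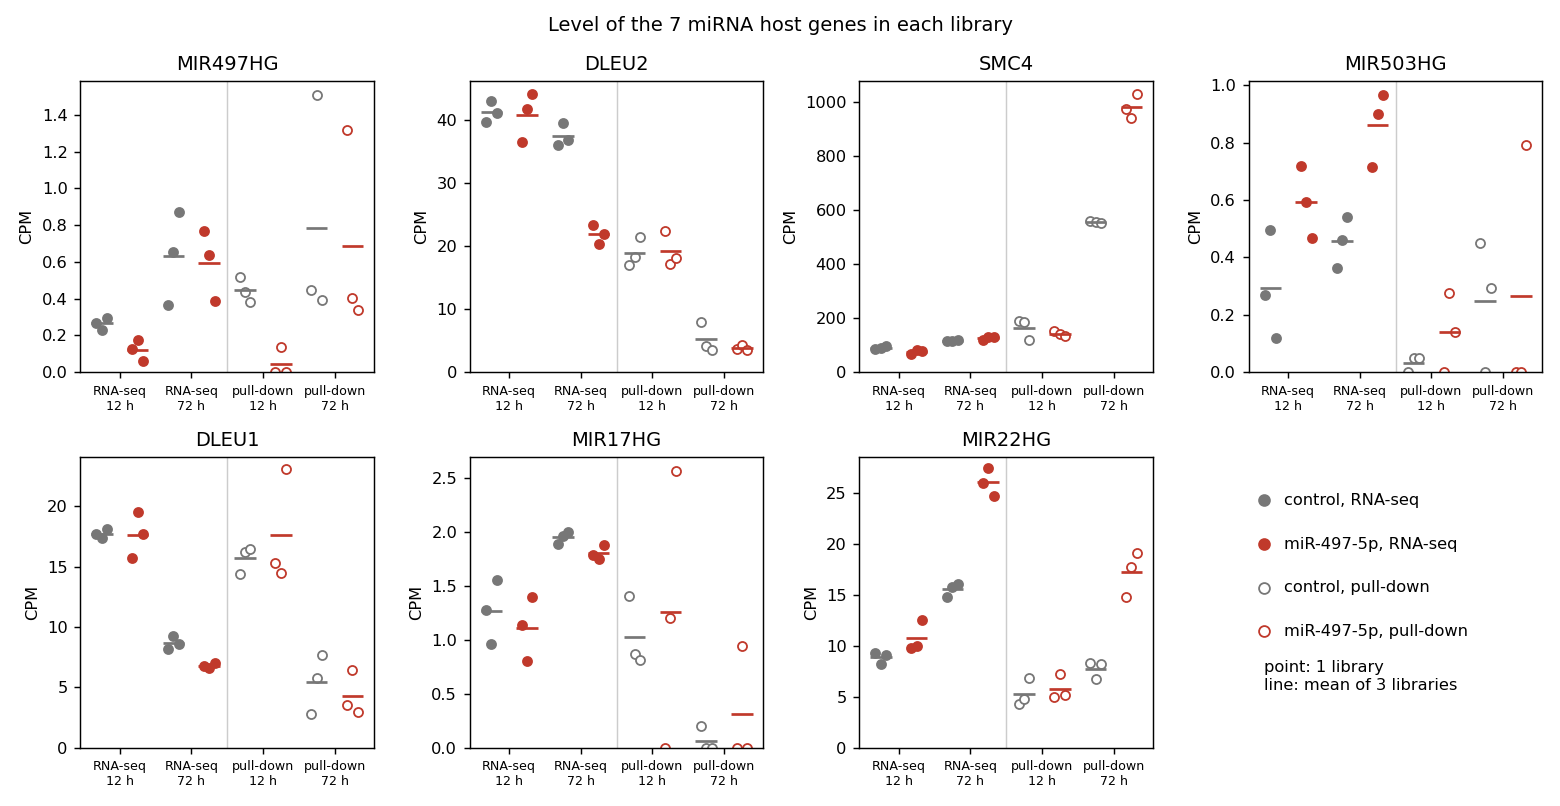
CPM (vertical axis, 1 scale per gene, starting at 0) of the 7 host genes in each of the 24 libraries, filled points for RNA-seq and open points for the pull-down, grey for control and red for miR-497-5p, with a line at the mean of 3. In RNA-seq at 72 h the red DLEU2 points lie at 20.4 to 23.4 CPM below all grey ones, and the red MIR22HG points at 24.7 to 27.4 CPM above all grey ones. In the pull-down at 72 h SMC4 reaches 940.5 to 1031.0 CPM.

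At 12 h the RNA-seq comparison asked which transcripts had changed in amount soon after miR-497-5p was added. Of the 7 members 2 passed the threshold of an adjusted p under 0.05 in edgeR's quasi-likelihood test, SMC4 lower and MIR22HG higher. Of all genes tested, 12.5% were called in this comparison.

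SMC4 had 86.6, 89.0 and 94.8 CPM in the control libraries and 66.8, 82.5 and 77.2 CPM with miR-497-5p. The lowest control lay above the highest treated library. The log2 fold change was -0.25 ± 0.06 (approximate standard error), with an adjusted p of 0.00232. MIR22HG had 9.34, 8.2 and 9.11 CPM in control and 9.75, 10.0 and 12.5 CPM with miR-497-5p, so its groups also did not overlap, with replicate 3 of the treated group the highest. It rose by 0.29 ± 0.09 (adjusted p 0.031). The rise was no longer called without control replicate 2 (adjusted p 0.166), control replicate 3 (0.061) or miR-497-5p replicate 3 (0.367, with a log2 fold change of 0.16). Neither was it called with scaling by library totals (0.0841), with no filter on low counts (0.05003) or in a fit of the 2 groups alone (0.108).

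The remaining hosts of the family were not called at 12 h. DLEU2 stood at 39.8, 43.0 and 41.1 CPM in control and 36.6, 41.8 and 44.2 CPM with miR-497-5p, with overlapping groups and a log2 fold change of -0.01 (approximate 95% interval -0.14 to 0.11, adjusted p 0.944). MIR497HG, which encodes the added microRNA, had 8, 7 and 10 counts in control and 3, 5 and 2 in treated libraries. Its groups did not overlap, and its log2 fold change of -1.13 ± 0.62 had an adjusted p of 0.267. MIR503HG had 8, 15 and 4 counts in control and 17, 17 and 15 in treated libraries. Its groups overlapped in CPM, and the value of 1.01 ± 0.46 had an adjusted p of 0.16. It was 1.61 without control replicate 2 (adjusted p 0.0591) and 0.61 without control replicate 3 (adjusted p 0.52).

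Neither DLEU1 nor MIR17HG was called at 12 h. DLEU1 had 17.7, 17.4 and 18.1 CPM against 15.7, 19.5 and 17.7 CPM, with an interval of -0.17 to 0.16 for the log2 fold change. The control libraries of DLEU1 lay inside the range of the treated ones. MIR17HG had 38, 29 and 53 counts against 27, 23 and 45, with overlapping groups and -0.18 ± 0.26 (adjusted p 0.746).

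In RNA-seq at 72 h 4 of the 7 members were called, beside 57.5% of all tested genes. DLEU2 and DLEU1 were lower with miR-497-5p, MIR22HG and SMC4 higher. A count of 4 of 7 is about the share of all genes.

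DLEU2, host of miR-15a and miR-16-1, had 36.0, 39.6 and 36.8 CPM in control and 23.4, 20.4 and 22.0 CPM with miR-497-5p. Each treated library lay well below each control. The log2 fold change was -0.77 ± 0.07 (adjusted p 1.69e-13). Under every alternative run the call held, with values between -0.88 and -0.72. DLEU2 was lower at 72 h while its level at 12 h was not, and the test of this difference between the 2 effects gave -0.76 ± 0.09 (adjusted p 2.08e-09).

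DLEU1 had 8.18, 9.26 and 8.57 CPM in control and 6.8, 6.61 and 7.0 CPM with miR-497-5p. Its groups did not overlap either, and it fell by 0.35 ± 0.1 on the log2 scale (adjusted p 0.0033). Its effect at 72 h minus that at 12 h was -0.35 ± 0.13 (adjusted p 0.0271). That call ended with DESeq2 (adjusted p 0.064) and without replicate 2 of miR-497-5p at 12 h (0.104), control replicate 2 at 72 h (0.107), or replicate 1 (0.0562) or 2 (0.0734) of miR-497-5p at 72 h.

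The DLEU1 promoter is shown because DLEU1 and DLEU2 were both lower at 72 h and have overlapping RefSeq start windows on opposite strands. Whether this overlap bears on either level was not tested. RefSeq (GRCh38.p14) places the DLEU1 window of 300 bases around its start at chr13:50081919-50082218 on the plus strand. A DLEU2 window at 50081992 to 50082291 on the minus strand shares 227 of these bases, in capitals here.

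DLEU1 promoter: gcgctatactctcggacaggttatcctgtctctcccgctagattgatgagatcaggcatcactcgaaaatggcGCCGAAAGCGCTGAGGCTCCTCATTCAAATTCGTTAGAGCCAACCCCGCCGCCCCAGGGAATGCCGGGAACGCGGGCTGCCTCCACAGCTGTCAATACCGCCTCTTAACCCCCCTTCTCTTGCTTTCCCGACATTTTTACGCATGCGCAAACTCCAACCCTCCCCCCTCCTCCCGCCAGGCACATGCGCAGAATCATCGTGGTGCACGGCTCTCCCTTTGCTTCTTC

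Such an overlap is not rare: the window of 18.9% of 27305 genes overlaps one of another gene on the opposite strand. DLEU2 has a further RefSeq window elsewhere, and the data do not show from which start its transcripts came.

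MIR22HG, host of miR-22, had 14.8, 15.8 and 16.1 CPM in control and 26.0, 27.4 and 24.7 CPM with miR-497-5p at 72 h. Each treated library lay far above the controls. It rose by 0.74 ± 0.08 (adjusted p 1.85e-10), with values of 0.64 to 0.78 over the alternatives. The effect at 72 h exceeded that at 12 h by 0.46 ± 0.12 (adjusted p 0.00188).

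SMC4 had 113.9, 114.2 and 117.7 CPM in control and 119.1, 131.5 and 128.6 CPM with miR-497-5p. The groups did not overlap, but the lowest treated library was close to the highest control. The log2 fold change of 0.13 ± 0.06 had an adjusted p of 0.042. That call ended without any 1 control library or without miR-497-5p replicate 2 or 3 (adjusted p 0.0636 to 0.178), with no filter on low counts (0.0832) and with scaling by library totals (0.763, with a value of 0.03). The effect on SMC4 at 72 h minus that at 12 h was 0.39 ± 0.08 (adjusted p 0.000151).

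MIR503HG had 9, 12 and 13 counts in control and 14, 17 and 20 in treated libraries at 72 h, groups that did not overlap, and its value of 0.91 ± 0.44 had an adjusted p of 0.0742. In a fit of the 2 groups alone the adjusted p was 0.0314. MIR497HG had 9, 17 and 21 counts against 15, 12 and 8, with overlapping groups and -0.08 ± 0.47 (adjusted p 0.902). MIR17HG had 1.89, 1.96 and 2.0 CPM against 1.79, 1.75 and 1.88 CPM. These groups lay just apart, and -0.11 ± 0.25 had an adjusted p of 0.742. Of the contrast between times, 48.8% of tested genes and 4 of the 7 members were called.

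**Figure D3:**
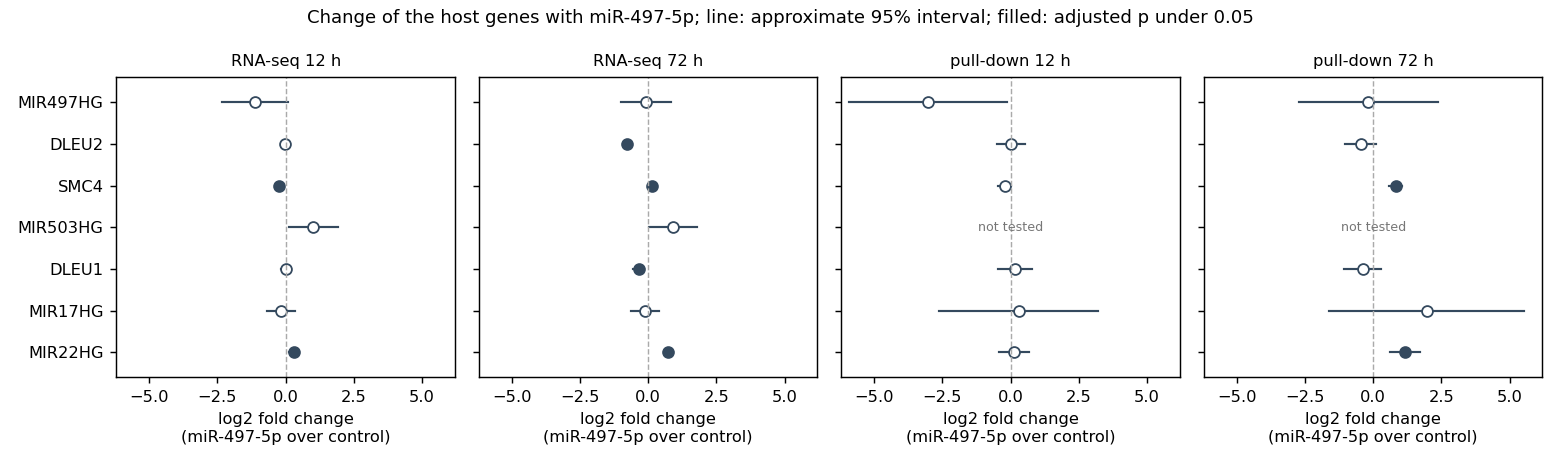
Log2 fold change of miR-497-5p over control (horizontal axis) for the 7 host genes in RNA-seq and pull-down at 12 h and 72 h, with the approximate 95% interval as a line and filled points for an adjusted p under 0.05. DLEU2 is at -0.77 in RNA-seq at 72 h, MIR22HG at 0.74 there and at 1.15 in the pull-down at 72 h. The wide lines belong to MIR497HG, MIR503HG and MIR17HG, which have few counts. For MIR497HG in the pull-down at 12 h the line lies below 0, though it was not called (adjusted p 0.497).

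The pull-down asked which transcripts were held with the biotinylated mimic. At 12 h 0.595% of tested genes were called. Of the 6 members tested 0 were called in edgeR or DESeq2, and 0 had an unadjusted p under 0.05 in edgeR. For MIR497HG 9 and for MIR17HG 10 of 11 alternatives gave an adjusted p, and a missing value counted as not called. MIR503HG, with 0 to 14 counts per pull-down library, did not pass the filter on low counts. SMC4 had 190.3, 184.6 and 117.5 CPM in control and 150.5, 139.6 and 134.0 CPM with miR-497-5p. Control replicate 3 was the lowest of the 6 and the groups overlapped. Its value of -0.22 ± 0.12 (adjusted p 0.586) became -0.4 without that library (adjusted p 0.00226).

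MIR497HG had 11, 9 and 8 counts in the control pull-down at 12 h and 0, 4 and 0 with miR-497-5p. The groups did not overlap, and the adjusted p was 0.497. The fitted fold, drawn in the figure of fold changes, depends on the treatment of zeros and is not read here. DLEU2 had 17.0, 18.2 and 21.4 CPM against 22.4, 17.2 and 18.1 CPM, and MIR22HG had 4.33, 4.74 and 6.82 CPM against 4.99, 7.26 and 5.17 CPM. Both overlapped, with 0.02 ± 0.26 for DLEU2 and 0.13 ± 0.28 for MIR22HG. DLEU1 had 14.4, 16.2 and 16.5 CPM against 15.3, 14.5 and 23.1 CPM, with 1 high treated library, and MIR17HG had 30, 18 and 17 counts against 0, 35 and 74.

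At 72 h 2 of the 6 members tested were called in the pull-down, both higher, beside 22.7% of all tested genes. SMC4 had 560.0, 555.6 and 552.0 CPM in control and 974.3, 940.5 and 1031.0 CPM with miR-497-5p. The treated libraries lay far above the controls, including the library of lowest depth. The log2 fold change was 0.82 ± 0.12 (adjusted p 1.09e-05), between 0.78 and 0.86 under the alternatives. The pull-down effect on SMC4 at 72 h exceeded that at 12 h by 1.04 ± 0.17 (adjusted p 0.000139), and SMC4 was the 1 member of 6 called in that contrast, which called 12.2% of tested genes.

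MIR22HG had 8.28, 6.72 and 8.22 CPM in the control pull-down at 72 h and 14.8, 17.7 and 19.1 CPM with miR-497-5p, again without overlap. It rose by 1.15 ± 0.28 (adjusted p 0.00354). DLEU2 had 7.93, 4.19 and 3.57 CPM in control and 3.7, 4.32 and 3.56 CPM with miR-497-5p, with control replicate 1 above the rest and overlapping groups (-0.45 ± 0.29, adjusted p 0.31). Without that library the DLEU2 value was -0.03 (adjusted p 0.989), and it was -0.67 without control replicate 3. DLEU1 had 2.79, 5.79 and 7.68 CPM against 3.54, 6.48 and 2.94 CPM (-0.38 ± 0.34, adjusted p 0.499), a wide spread in both groups. The DLEU1 value was -0.06 without control replicate 3 and -0.17 without miR-497-5p replicate 3, but -0.7 without control replicate 1 and -0.75 without miR-497-5p replicate 2. MIR497HG had 9, 39 and 8 counts against 25, 3 and 6, with 1 high library in each group, and MIR17HG had 4, 0 and 0 counts against 0, 7 and 0.

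Whether the pull-down held more of a transcript than its change in the input was tested by the difference of the 2 effects at each time. At 12 h 0 of 7 members were called in edgeR, beside 1.34% of tested genes, with 0 at an unadjusted p under 0.05. DESeq2 also called 0. For MIR497HG and MIR503HG 15 of 16 alternatives gave an adjusted p. At 72 h 1 of 7 was called, beside 14.5% of tested genes. SMC4 was that member, with a pull-down effect above its RNA-seq effect by 0.67 ± 0.06 (adjusted p 5.26e-07; 0.62 to 0.81 over the alternatives). MIR22HG, at 0.39 ± 0.2, was not called (adjusted p 0.248), and neither was DLEU2 at 0.3 ± 0.32 (adjusted p 0.632). Without pull-down control replicate 1 the DLEU2 value was 0.71 (adjusted p 0.0312). Genes of like kind were called in this contrast at 72 h too. Of 32 other protein-coding microRNA hosts tested 9 were higher and 1 lower, and of 15 noncoding ones 0 and 1. Of 18 other condensin and cohesin genes 4 were higher and 3 lower. These counts were not tested against the share of all genes.

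The control mimic gives the background of the pull-down. With it, the pull-down and the RNA-seq libraries differed for 46.6% of tested genes at 12 h and 63.8% at 72 h. Among the members 2 of 7 were called at 12 h and 4 of 7 at 72 h. SMC4 was higher in the control pull-down than in control RNA-seq at 12 h by 1.05 ± 0.13 (adjusted p 6.35e-06). At 72 h it was higher by 2.5 ± 0.04 (adjusted p 5.35e-18). SMC4 thus stood high in the pull-down without miR-497-5p. DLEU2 was lower in the control pull-down, with -0.94 ± 0.13 at 12 h (adjusted p 1.27e-05) and -2.62 ± 0.22 later, at 72 h (adjusted p 1.03e-08).

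MIR22HG was lower by -0.78 ± 0.15 in the control pull-down at 72 h (adjusted p 0.000161), and its value at 12 h was -0.55 ± 0.22 (adjusted p 0.0505), which 4 of 11 alternatives called, control replicate 3 of the pull-down left out (-0.81, adjusted p 0.00806) among them. DLEU1 had 0.01 ± 0.17 at 12 h and -0.44 ± 0.33 at 72 h (adjusted p 0.967 and 0.248), and at 72 h -0.82 (adjusted p 0.0392) with scaling by library totals. MIR17HG had 4, 0 and 0 counts in the control pull-down at 72 h against 47, 51 and 48 in control RNA-seq, an adjusted p of 0.00528, with no overlap. At 12 h MIR17HG had 30, 18 and 17 counts against 38, 29 and 53, and was not called (adjusted p 0.923). MIR503HG had 0, 1 and 1 counts in the control pull-down at 12 h against 8, 15 and 4 in control RNA-seq (adjusted p 0.0527), without overlap. It passed the threshold with scaling by library totals (adjusted p 0.04) and, by a narrow margin, without RNA-seq control replicate 3 (adjusted p 0.04996). At 72 h its counts were 9, 0 and 6 against 9, 12 and 13 (adjusted p 0.662). MIR497HG was not called at either time, with 0.92 ± 0.82 and 0.55 ± 0.83. Whether extract, beads or biotin set these differences cannot be told apart, since the pull-down came from a cytoplasmic extract and the input did not pass over beads.

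The other condensin subunits did not share one pattern in this comparison. At 72 h SMC2, the partner ATPase of SMC4, was higher in the control pull-down by 1.48 ± 0.08 (adjusted p 1.16e-11), NCAPH2 by 1.99 ± 0.06 (adjusted p 1.7e-14) and NCAPG by 0.89 ± 0.1 (adjusted p 3.47e-07). NCAPD2 (-1.19 ± 0.1), NCAPH (-2.04 ± 0.16) and NCAPD3 (-1.75 ± 0.21) were lower, with adjusted p of 1.25e-08, 5.65e-09 and 8.89e-07. NCAPG2 stood at -0.1 ± 0.3 (adjusted p 0.786).

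**Figure D4:**
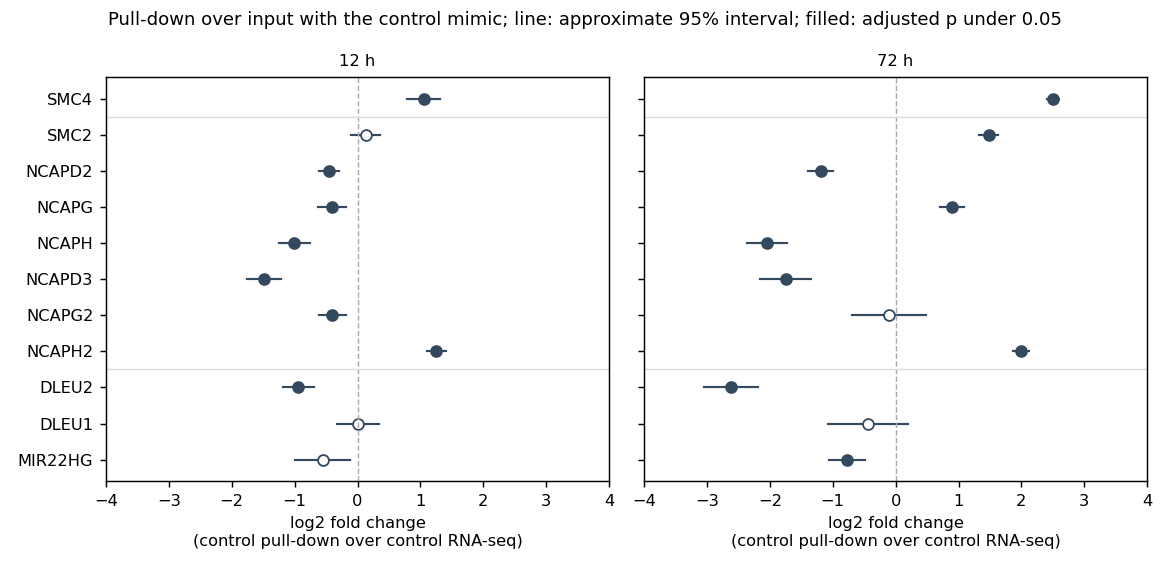
Log2 fold change of the control pull-down over control RNA-seq (horizontal axis) at 12 h and 72 h for SMC4, the 7 other condensin subunits, and DLEU2, DLEU1 and MIR22HG, with the approximate 95% interval as a line and filled points for an adjusted p under 0.05. At 72 h SMC4 is the highest of those drawn at 2.5 and DLEU2 the lowest at -2.62.

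The host genes also differed between the times with the control mimic, and the cause was not tested. In control RNA-seq 6 of 7 members differed between 72 h and 12 h, beside 74.4% of tested genes, 4 higher and 2 lower at 72 h. DLEU1 was lower by -1.03 ± 0.09 (adjusted p 3.39e-14) and MIR22HG higher by 0.81 ± 0.09 (adjusted p 5.22e-11). SMC4 was higher by 0.35 ± 0.05 (adjusted p 2.16e-06), but by 0.11 (adjusted p 0.144) with scaling by library totals. MIR497HG (1.23 ± 0.49, adjusted p 0.0213), MIR17HG (0.62 ± 0.25, adjusted p 0.0246) and DLEU2 (-0.14 ± 0.06, adjusted p 0.0441) each lost the call without 1 of several control libraries. MIR497HG and MIR17HG also lost it with scaling by library totals (0.98, adjusted p 0.0647, and 0.37, adjusted p 0.177) and with no filter on low counts (adjusted p 0.0593 and 0.0642), while the DLEU2 value by library totals was -0.39 (adjusted p 7.27e-07). Without control replicate 3 at 72 h all 3 of these genes lost it (adjusted p 0.15, 0.062 and 0.111). Without control replicate 2 at 12 h MIR497HG had an adjusted p of 0.0659, MIR17HG of 0.132 and DLEU2 of 0.141. Without control replicate 2 at 72 h MIR497HG had 0.0599 and MIR17HG 0.0606. DLEU2 lost the call also without control replicate 3 at 12 h (0.0597) or control replicate 1 at 72 h (0.16). MIR503HG, at 0.64 ± 0.48 (adjusted p 0.225), was called without control replicate 2 at 12 h (1.23, adjusted p 0.049).

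Neighbouring genes were examined because counting may not have used strand, so reads of genes on opposite strands cannot be told apart. Of the 3842 exon bases of MIR497HG 1691 overlap another gene on either strand, 1466 of them a gene on the opposite strand. The share is 25.6% for SMC4 and 17.5% for DLEU2, all with genes on the opposite strand. For DLEU1 it is 4.5%, all with genes on the same strand. For MIR503HG, MIR17HG and MIR22HG the overlap is 0. TRIM13, a ubiquitin ligase gene antisense to DLEU2, rose in RNA-seq at 72 h, with means of 7.46 and 13.2 CPM (0.82 ± 0.12, adjusted p 3.91e-08) while DLEU2 fell. IFT80, which encodes a ciliary transport protein and is antisense to SMC4, rose from 12.3 to 20.9 CPM (0.76 ± 0.09, adjusted p 1.54e-09). TRIM59, also antisense to SMC4, fell at 12 h, when SMC4 fell, with means of 17.7 and 14.6 CPM (-0.27 ± 0.09, adjusted p 0.0341). At 72 h TRIM59 had -0.16 ± 0.09 (adjusted p 0.133). The part of antisense reads in these values was not tested.

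Other genes within 20 kb went both ways at 72 h. TLCD2, on the same strand as MIR22HG and 1055 bases from it, rose in RNA-seq, with means of 15.0 and 26.4 CPM (0.82 ± 0.1, adjusted p 9.44e-10). Its pull-down level went from 30.3 to 69.9 CPM (1.21 ± 0.29, adjusted p 0.00405). WDR81, on the opposite strand over MIR22HG, fell in RNA-seq from 5.16 to 4.16 CPM (-0.31 ± 0.13, adjusted p 0.0455). PLAC1 near MIR503HG fell from 1.33 to 0.506 CPM (-1.39 ± 0.34, adjusted p 0.000484) and SLC16A13 near MIR497HG from 0.934 to 0.492 CPM (-0.92 ± 0.33, adjusted p 0.0164). ALOX12-AS1 near MIR497HG rose from 4.36 to 5.69 CPM (0.38 ± 0.17, adjusted p 0.0461). The other neighbours of MIR497HG that were tested, ALOX12, RNASEK, RNASEK-C17orf49 and C17orf49, were not called, with adjusted p of 0.74, 0.152, 0.758 and 0.0788.

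Related gene lists place the members among genes of like kind. Of all tested genes 12.5% were called at 12 h and 57.5% at 72 h, and the counts in the lists were not tested against these shares. Of 18 other condensin and cohesin genes 0 were higher and 5 lower in RNA-seq at 12 h (median -0.11, against 0.005 over all tested genes), and 7 were higher and 6 lower at 72 h (median -0.01, against 0.003). At 12 h they included WAPL, which releases cohesin from DNA (-0.25 ± 0.06, adjusted p 0.00208), NCAPD2 (-0.16 ± 0.04, adjusted p 0.00666) and the cohesin ATPase SMC1A (-0.23 ± 0.07, adjusted p 0.0154). At 72 h the condensin subunits NCAPH2 (-1.19 ± 0.05, adjusted p 4.15e-25), NCAPD2 (-0.9 ± 0.05, adjusted p 1.29e-21) and NCAPH (-0.97 ± 0.07, adjusted p 2.61e-17) were lower, and SMC2 was higher (0.29 ± 0.06, adjusted p 7.16e-05). The cohesin subunit STAG2 (1.2 ± 0.07, adjusted p 5.55e-18), the cohesin loader NIPBL (0.55 ± 0.06, adjusted p 7.18e-11) and PDS5A, a cohesin regulator (0.35 ± 0.05, adjusted p 7.21e-09), were higher.

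Of 28 other noncoding microRNA hosts 19 were tested in RNA-seq, of which 3 were higher and 2 lower at 12 h (median 0.08, against 0.005 over all tested genes), beside 12.5% of all tested genes called. At 72 h 8 were higher and 2 lower (median 0.24, against 0.003), and these 10 of 19 are about the share of all genes, 57.5%. MIR100HG, host of miR-100 and let-7a-2, rose from 77.8 to 215.9 CPM at 72 h (1.47 ± 0.05, adjusted p 1.45e-29). CYTOR rose at 12 h by 0.31 ± 0.04 (adjusted p 3.39e-08) and more at 72 h, by 0.71 ± 0.04 (adjusted p 2.08e-21), and its near copy MIR4435-2HG by 0.16 ± 0.04 (adjusted p 0.00296) and 0.64 ± 0.04 (adjusted p 4.93e-19). Uniquely placed reads of these near copies may be lost or split. MIR23AHG was higher at 12 h (0.48 ± 0.15, adjusted p 0.0219), and H19 (-1.05 ± 0.35, adjusted p 0.0372) and MIR9-1HG (-0.85 ± 0.28, adjusted p 0.0429) lower. At 72 h MIRLET7BHG (-0.35 ± 0.08, adjusted p 0.000218) and MIR1915HG (-0.42 ± 0.13, adjusted p 0.00415) were lower.

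Of 35 other protein-coding hosts 33 were tested, with 2 higher and 3 lower at 12 h (median 0.0, against 0.005 over all tested genes, of which 12.5% were called). At 72 h 11 were higher and 15 lower (median -0.17, against 0.003), beside 57.5% of all tested genes called. LPP, host of miR-28, had -0.18 ± 0.05 at 12 h (adjusted p 0.0168) and rose from 85.5 to 238.4 CPM at 72 h (1.48 ± 0.05, adjusted p 4.97e-29). MEST, host of miR-335 (0.92 ± 0.04, adjusted p 4.68e-25), and ZRANB2, host of miR-186 (1.0 ± 0.08, adjusted p 1e-15), were higher at 72 h. The sterol regulators SREBF2, host of miR-33a (-0.9 ± 0.04, adjusted p 3.04e-22), and SREBF1, host of miR-33b (-0.85 ± 0.05, adjusted p 2.71e-18), were lower, as was DNM2 (-0.64 ± 0.04, adjusted p 1.73e-17). At 12 h COPZ1 (0.14 ± 0.03, adjusted p 0.00421) and EGFL7 (0.17 ± 0.06, adjusted p 0.0367) were higher, and HUWE1 (-0.16 ± 0.04, adjusted p 0.00278) and SREBF2 (-0.14 ± 0.04, adjusted p 0.0286) lower.

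Of 23 tested genes that process microRNAs 1 was higher and 3 lower at 12 h (median -0.06, against 0.005 over all tested genes), beside 12.5% called of all tested genes. At 72 h 10 were higher and 11 lower (median -0.09, against 0.003), beside 57.5%. DROSHA, the nuclear enzyme that cuts hairpins out of host transcripts, was lower at 12 h (-0.21 ± 0.05, adjusted p 0.000793). TARBP2, a partner of DICER1, was lower at 12 h (-0.2 ± 0.06, adjusted p 0.0154) and much lower at 72 h (-1.44 ± 0.07, adjusted p 1.77e-23). RAN, the GTPase of hairpin export (-0.65 ± 0.03, adjusted p 1.44e-22), was lower at 72 h. ERH was higher at 12 h (0.1 ± 0.03, adjusted p 0.0337) and lower at 72 h (-0.55 ± 0.03, adjusted p 1.44e-18). TUT7, which adds uridines to microRNA precursors (1.12 ± 0.09, adjusted p 2.64e-15), and the helicase DDX17 (0.48 ± 0.04, adjusted p 1.07e-13) were higher at 72 h. HNRNPA1, which has many processed pseudogenes, was lower at 12 h (-0.09 ± 0.03, adjusted p 0.021) and higher by 0.3 ± 0.03 at 72 h (adjusted p 2.37e-13).

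The genes most like each member in level over the 12 RNA-seq libraries were found by Pearson's r of log2 CPM among 13933 genes. These libraries fall into 4 groups, so r largely follows the 4 group levels. DLEU2 was followed most closely by CENPK (r = 0.988), CHST15 (0.983) and DGCR8 (0.983). DGCR8 had 28.1, 26.9, 23.8 and 11.9 CPM in the control and miR-497-5p groups at 12 h and then at 72 h. DLEU1 was followed by PTGR1 (0.996), PDGFC (0.996) and TXNDC12 (0.994), genes that were lower at 72 h than at 12 h in both arms. SMC4 was followed by ARHGAP5 (0.988), LRRCC1 (0.984) and ARL10 (0.98), and MIR22HG by RYBP (0.991), C12orf75 (0.991) and ENSG00000277879 (0.99). For MIR17HG the highest were LINC01588 (0.929), ENSG00000267904 (0.926) and CRY2 (0.923). MIR497HG and MIR503HG had a mean under 1 CPM and were not compared.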

How the data were processed

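Per the submitters' processing notes, the authors trimmed reads with Trimmomatic 0.36, aligned them to GRCh38 with STAR 2.5.2b and counted unique reads in exons with featureCounts of Subread 1.5.2. The deposited files hold raw counts of 57500 genes per library, with the exons counted. No source used here states whether strand was used in counting. GENCODE release 44 gave symbols for 56410 identifiers (98.1%), RefSeq the microRNAs and promoters.

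The counts entered edgeR 4.0.16 under R 4.3.3 (TMM, default low-count filter, robust quasi-likelihood test, tested on simulated data), over the 12 libraries of an assay or, where assays were compared, of a time. Benjamini-Hochberg adjustment covered every gene in a fit, genes with an adjusted p under 0.05 were called, and adjusted p are edgeR's unless another tool is named. CPM are scaled by TMM, except for the sums of squamous markers. Intervals are approximate. The closest libraries of a group still differed beyond counting error (chi-square per degree of freedom 1.77). Alternatives were DESeq2 1.42.0, scaling by library totals, no filter, only the groups compared, a replicate block and leaving out each library.

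The members and lists were chosen with earlier results of these data known. Named genes are the members, up to 3 called genes per list and direction with the smallest adjusted p in RNA-seq at each time, tested neighbours within 20 kb, and the 3 genes most like each member. SMC2, the other condensin subunits in the control pull-down, and DGCR8's levels were added after their values were seen.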

Additional observations from a re-analysis of the deposited data

Results flagged for a closer look

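The effect of miR-497-5p differed between 72 h and 12 h for 4 members in RNA-seq and 1 in the pull-down, by a test of the difference itself in edgeR. In RNA-seq the difference was -0.35 for DLEU1 (adjusted p 0.0271), -0.76 for DLEU2 (adjusted p 2.08e-09), 0.39 for SMC4 (adjusted p 0.000151) and 0.46 for MIR22HG (adjusted p 0.00188). SMC4 was lower at 12 h with the mimic. Its rise at 72 h (0.13, adjusted p 0.042) lost the call in 7 of 11 alternatives. In pull-down libraries the difference for SMC4 was 1.04 (adjusted p 0.000139). These contrasts called 48.8% and 12.2% of all tested genes.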

How the results depend on the processing

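Of 934 recomputed log2 fold changes 830 kept direction and side of the threshold, 33 lost the call, 11 gained it and 60 changed sign, none of the 60 being a call. Leaving out 1 library moved 39 of 48 uncalled values by over 1.5 times or to the other sign, but only 2 of 26 called ones, MIR22HG in RNA-seq at 12 h and MIR17HG in the control pull-down against RNA-seq at 72 h (without control replicate 1 of the pull-down, the only one of the 3 with counts). The fit of only the groups compared adds no value where all 4 groups of a fit enter the contrast. In none of 8 pairs of groups were all 3 same-number correlations over 0.1, and they ran from -0.169 to 0.363. With 3 libraries per group, this check cannot show whether libraries of the same number came from the same culture. With the replicate block the DLEU2 value at pull-down 12 h was 0.0, and MIR497HG stood at 0.06 in the pull-down at 72 h and at 0.08 in the pull-down minus RNA-seq effect at 72 h. The block called MIR22HG in the control pull-down against RNA-seq at 12 h (-0.58, adjusted p 0.0463) and changed no other call of a member.

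Members called in RNA-seq at 12 h numbered 1 when scaled by library totals, with no filter or with only the groups compared, and 1 to 2 when 1 library was left out. Members called between times in control RNA-seq were 3 by library totals and 3 to 6 with 1 library left out, and in the control pull-down against RNA-seq at 12 h they were 4 by library totals. Leaving out 1 library gave 0 to 1 in the pull-down at 12 h and 1 to 2 for the pull-down minus RNA-seq effect at 72 h. By library totals the sign changed for MIR22HG (0.01) in the pull-down minus RNA-seq effect at 12 h, for MIR497HG (0.04) and DLEU1 (0.09) in that at 72 h, and for DLEU1 (-0.16) in the control pull-down against RNA-seq at 12 h, where it was -0.04 with no filter. DESeq2 gave 0.0 for DLEU2 in the pull-down minus RNA-seq effect at 12 h. Scaling by library totals moved the median of all genes to -0.251 for control RNA-seq between times, to -0.25 and -0.532 for the control pull-down against RNA-seq at 12 h and 72 h, and to 0.132 and 0.136 for the pull-down minus RNA-seq effects. It moved the median to -0.116 for the pull-down effect between times.

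With 1 library left out, ranges that crossed 0 were as follows. In RNA-seq at 12 h DLEU1 had -0.08 to 0.07, DLEU2 -0.07 to 0.06 and MIR17HG -0.4 to 0.01, and at 72 h MIR497HG had -0.36 to 0.22. In the pull-down at 12 h DLEU1 had -0.07 to 0.29, DLEU2 -0.08 to 0.13, MIR17HG -0.73 to 0.89 and MIR22HG -0.07 to 0.37. At 72 h MIR497HG had -1.08 to 0.72 and MIR17HG -3.61 to 5.47. For the RNA-seq effect between times MIR503HG had -0.69 to 0.3 and MIR17HG -0.13 to 0.29, and for the pull-down effect MIR17HG had -3.9 to 5.18. For the pull-down minus RNA-seq effect at 12 h DLEU1 had -0.05 to 0.3, DLEU2 -0.05 to 0.17, SMC4 -0.11 to 0.18, MIR17HG -0.46 to 1.08 and MIR22HG -0.35 to 0.12. At 72 h MIR497HG had -1.03 to 0.8, DLEU1 -0.41 to 0.28, MIR503HG -6.39 to 0.07 and MIR17HG -3.55 to 5.38. In the control pull-down against RNA-seq DLEU1 had -0.06 to 0.07 and MIR17HG -0.4 to 0.06 at 12 h, and MIR497HG -0.37 to 0.85 at 72 h.

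Counts over all genes moved by over 1.5 times from 104 in the pull-down at 12 h (217 with no filter, 314 with DESeq2, 64 to 268 with 1 library left out), from 229 in the pull-down minus RNA-seq effect at 12 h (400 by library totals, 573 with no filter, 974 with DESeq2, 42 to 683 with 1 library left out) and from 2175 in RNA-seq at 12 h (1433 without control replicate 2). The cause was not tested. Few counts limit MIR497HG, MIR503HG and MIR17HG, and low depth limits replicate 2 of the miR-497-5p pull-down at 72 h.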
